A study of Mus musculus with 18 samples.

Results

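The 10 genes described here are 8 that mark endothelial cells or serve as their growth factor receptors (Pecam1, Cdh5, Kdr, Flt1, Tek, Tie1, Emcn and Eng) and the VEGF ligands Vegfa and Vegfb. They were taken by matching the Ensembl identifiers of the count table to mouse symbols, and all 10 were found among the 43430 genes of the table and among the 13596 genes that entered the tests. RNA came from myofibers of the quadriceps of adult C57BL/6 mice (C57BL/6J in the study's methods), in 18 libraries that fall into 6 groups of 3. Males and females each received intraperitoneal vehicle, prednisone once weekly or prednisone daily over about a month, and prednisone is a synthetic glucocorticoid. The comparison asks how the dosing interval of the drug acts on muscle in each sex. Myofibers were the material that a strainer held back after collagenase II digestion, so capillaries and other cells that cling to fibers can come along.

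Endothelial cells line blood vessels, and skeletal muscle holds a dense net of capillaries beside its fibers. Vegfa, which muscle fibers and other cells release, acts on the receptor tyrosine kinases Kdr (VEGFR2), the main signaling receptor for vessel growth, and Flt1 (VEGFR1), which binds VEGF tightly, signals weakly and acts largely as a decoy. Vegfb binds Flt1 but not Kdr. Tek (TIE2) is the receptor of the angiopoietins and Tie1 its partner without a well settled ligand of its own, while Eng (endoglin) is a co-receptor for BMP and TGF-beta ligands. Pecam1 and Cdh5 (VE-cadherin) sit at the contacts between endothelial cells, and Emcn (endomucin) is a surface sialomucin of capillaries and veins.

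Total counts ran from 10506661 to 14686654 per library, mitochondrial genes took 11.7% to 36.4% of them, and Xist and Ddx3y matched the labelled sex in all 18. The 8 myofiber markers summed to 102087 to 183871 CPM (read counts scaled to a common library depth, with TMM factors), and none was at 0 in any group. The 8 endothelial members summed to 640 to 1740 CPM, and each of the 10 members had between 262 and 4831 counts in every library. Weekly female replicate 2 stood apart from the other weekly females, with the highest endothelial sum (1740 CPM), the highest mitochondrial share (36.4%) and the lowest Vegfa (43.3 CPM) of all 18. Weekly female replicate 1 had the lowest endothelial sum (640 CPM). Weekly values in females are given with replicate 2, and the fold changes and ratios that rest on it also without it. Endothelial sums differ between libraries of 1 group, and in such bulk RNA fewer endothelial cells and less RNA per endothelial cell cannot be told apart.

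To show the DNA in front of the members whose values matter most below, the 250 bases before the start of Vegfa, Vegfb, Kdr and Flt1 are printed, read from RefSeq's promoter table (GRCm38.p6) in the direction of transcription. They lie at chr17:46032378-46032627, chr19:6987652-6987901, chr5:75978456-75978705 and chr5:147726012-147726261, all on the minus strand. Capitals mark the GC box (GGGCGG, either strand), the site of Sp factors, in the ligands, and the core of ETS factor sites (GGAA, either strand), factors that run many endothelial genes, in the receptors.
Vegfa: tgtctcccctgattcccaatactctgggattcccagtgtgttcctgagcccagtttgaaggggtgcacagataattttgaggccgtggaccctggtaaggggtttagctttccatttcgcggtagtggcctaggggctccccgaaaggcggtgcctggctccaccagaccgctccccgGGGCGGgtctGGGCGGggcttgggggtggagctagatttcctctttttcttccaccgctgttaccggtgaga
Vegfb: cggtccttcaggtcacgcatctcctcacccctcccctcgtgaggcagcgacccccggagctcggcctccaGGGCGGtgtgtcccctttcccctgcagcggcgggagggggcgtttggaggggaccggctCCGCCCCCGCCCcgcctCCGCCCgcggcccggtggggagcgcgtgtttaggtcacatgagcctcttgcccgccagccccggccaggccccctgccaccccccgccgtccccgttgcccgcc
Kdr: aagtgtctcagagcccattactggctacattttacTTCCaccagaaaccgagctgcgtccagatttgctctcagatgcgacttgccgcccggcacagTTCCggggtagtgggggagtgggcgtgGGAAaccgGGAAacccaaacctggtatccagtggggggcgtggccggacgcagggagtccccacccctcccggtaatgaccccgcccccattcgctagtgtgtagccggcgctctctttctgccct
Flt1: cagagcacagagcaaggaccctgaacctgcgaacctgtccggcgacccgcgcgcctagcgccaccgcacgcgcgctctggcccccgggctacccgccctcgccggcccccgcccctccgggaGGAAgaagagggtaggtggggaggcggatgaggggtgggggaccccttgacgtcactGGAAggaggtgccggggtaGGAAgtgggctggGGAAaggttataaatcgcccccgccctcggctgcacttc
The Vegfa window held 2 GC boxes and that of Vegfb 4, beside 2 in Kdr and 3 in Flt1 and none in the windows of Tek, Tie1, Emcn or Eng. Of 32841 promoter windows of this length, 32.7% held at least 1 GC box. The GGAA core was found 4 times each in Kdr, Flt1 and Emcn, 7 times in Tie1, 6 in Vegfa, 3 in Eng, 2 in Tek and once in Vegfb, but 93.5% of all windows held it. The spaced half-sites ACANNNTGT, the form bound by the glucocorticoid receptor as a pair, were in none of the 8 windows and in 5.8% of all. Cores bound by hypoxia-inducible factors (ACGTG or GCGTG) were matched 2 times each in Kdr and Vegfb, once each in Flt1 and Emcn and not in Vegfa, against 38.6% of all windows with a match. Pecam1 and Cdh5 had no entry in the table, and of 2 entries for Vegfa the one at the gene's own start was read. A match is a run of letters and not a measured site.

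Levels of the members were first compared per length, as CPM per kb of the longest coding transcript, in the 6 vehicle libraries. Pecam1 was highest with 66.4 ± 17.4 CPM per kb (SD, n = 6), followed by Cdh5 with 58.5 ± 11.7 and Vegfb with 51.9 ± 3.16. Eng had 40.3 ± 9.09, Flt1 32.4 ± 7.12 and Tie1 31.1 ± 6.17 CPM per kb. Vegfa had 25.8 ± 4.76, Kdr 22.0 ± 7.02, Emcn 13.5 ± 2.44 and Tek 13.1 ± 3.29 CPM per kb. Per length, Flt1 thus exceeded Kdr and Tie1 exceeded Tek in the vehicle means, the decoy-like receptor and the partner receptor standing above the main signaling one. This order depends on the transcript lengths taken, 6895 bases for Flt1 and 5924 for Kdr. In weekly female replicate 1 Flt1 (14.5 CPM per kb) lay below Kdr (15.8). Of neighbors in this order, Kdr lay above Emcn in 18 of 18 libraries and Vegfb above Eng in 16 of 18, including all 6 vehicle libraries. The other neighbors changed places between libraries. Pecam1 was above Cdh5 in 13 of 18, Eng above Flt1 in 14, Flt1 above Tie1 in 14 but only 3 of 6 vehicle libraries, and Emcn above Tek in 11. Between the library with the lowest and the one with the highest value, Vegfa spanned 4.83-fold in CPM, more than each of the other 9, which spanned 2.52-fold (Eng) to 3.33-fold (Flt1). This lead rests on weekly female replicate 2 (43.3 CPM of Vegfa), as the next lowest library, vehicle female replicate 3, read 66.5 CPM.

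**Figure D1:**
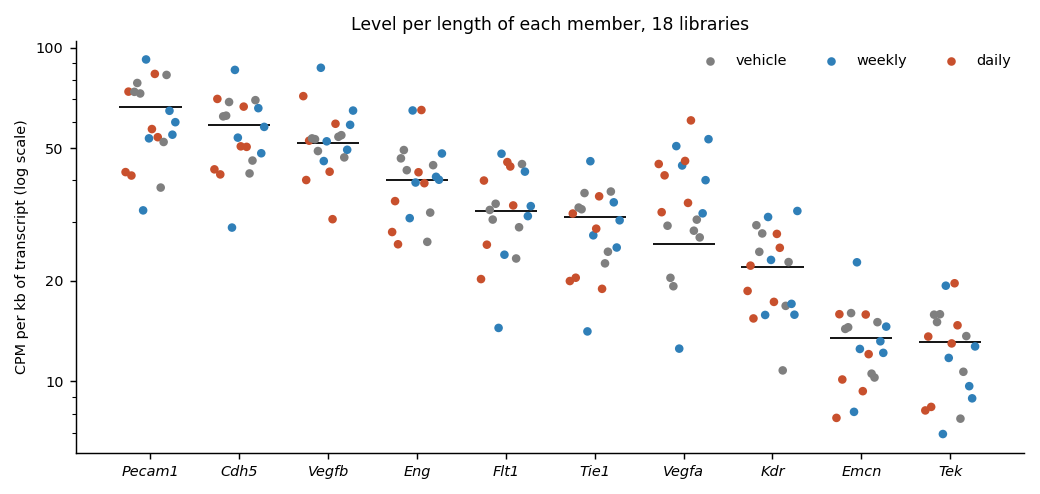
Level per length (CPM per kb of transcript, log scale) of each member in the 18 libraries, 1 point per library colored by treatment, with a black line at the mean of the 6 vehicle libraries. Members are ordered by that mean from Pecam1 (66.4) to Tek (13.1), and Vegfa spans the widest range, with weekly female replicate 2 at its low end.

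Prednisone against vehicle was tested for each sex and for the mean of both sexes, with edgeR's quasi-likelihood test and adjustment over all 13596 genes. No member was called at an adjusted p below 0.05 after daily prednisone in males (0 of 10, none at an unadjusted p below 0.05, against 6.46% of all genes called), in females (0 of 10, 1 at an unadjusted p below 0.05, against 0.382%) or in the mean of both sexes (0 of 10, 1 unadjusted, against 15%). DESeq2 called 1 member in the mean of both sexes, Vegfa, among 2354 genes called in all. In the single sexes it called no member, among 1383 genes called in males and 530 in females. No member was called by limma-voom, among 1869 genes called in the mean of both sexes. After weekly prednisone edgeR called no member and no other gene in males, in females or in the mean (0% of all genes), where 777, 1083 and 1492 genes and 0, 0 and 1 members had an unadjusted p below 0.05. DESeq2 called 183 genes in the weekly mean, none of them a member, and limma-voom called no member.

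Vegfa, the ligand of both Kdr and Flt1, was the member whose daily libraries lay above vehicle in both sexes. In vehicle males it read 97.6, 105 and 93.2 CPM, in weekly males 110, 138 and 184 CPM, and in daily males 158, 118 and 209 CPM. In vehicle females it read 101, 70.5 and 66.5 CPM, in weekly females 175, 43.3 and 153 CPM, and in daily females 155, 111 and 143 CPM. All 6 daily libraries lay above the vehicle libraries of their sex, as did the 3 weekly male libraries, while weekly females ran from the lowest value of the 18 libraries to 175 CPM. The share of all genes with every daily library above vehicle was 16.4% in males and 12.9% in females, and 7.76% of genes had this in weekly males, against 1 of the 10 members in each case. The log2 fold change of Vegfa was 0.71 ± 0.37 (SE) in daily males, 0.78 ± 0.37 in daily females and 0.74 ± 0.26 in the mean of both sexes, where edgeR gave an unadjusted p of 0.0121 and an adjusted p of 0.0682. In the mean of both sexes DESeq2 gave an adjusted p of 0.032, limma-voom 0.0868 and a fit of the daily and vehicle libraries alone 0.00433 (edgeR), so that the call turns on the tool and on which libraries set the spread. Fitted alone, daily and vehicle males also passed, at 0.70 ± 0.19 (log2, edgeR adjusted p = 0.0415). Daily and vehicle females fitted alone did not pass, at 0.78 ± 0.20 (edgeR adjusted p = 0.148). Such fits called 2386 genes in all in the mean of both sexes, 1530 in males and none in females. For weekly prednisone the fold changes were 0.54 ± 0.37 in males, 0.64 ± 0.37 in females and 0.59 ± 0.26 in the mean, with an adjusted p of 0.420 (edgeR). Without weekly female replicate 2 these were 1.02 ± 0.24 in females, with an adjusted p of 0.0363, and 0.78 ± 0.16 in the mean, with an adjusted p of 0.0245 (edgeR), so that 1 library decides the weekly call. Its omission changed the calls across genes, to 253 genes in weekly females and 174 in the weekly mean, where none was called with it. As that library was singled out in part by its Vegfa, these p values are no test of the weekly change of Vegfa.

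Markers of adipocytes were higher in the same groups as Vegfa. Of 10 such markers, 9 rose in the mean of daily males and females (edgeR), among them Plin1, a lipid droplet coat protein, and none was at 0 in any group. Their summed level was 566 to 870 CPM in vehicle males, 945 to 1685 in weekly and 1159 to 2375 in daily males. In females it was 906 to 1201 CPM with vehicle, 1093 to 6984 with weekly and 1784 to 4502 with daily prednisone. The weekly female library with the lowest Vegfa was also the one with the lowest adipocyte sum of its group (1093 CPM), although male daily replicate 3, with the highest Vegfa (209 CPM), had the lowest adipocyte sum of the daily males (1159 CPM). With the mean log2 CPM of these markers as a covariate, the log2 fold change of Vegfa was 0.02 ± 0.34 for daily and -0.20 ± 0.36 for weekly prednisone in the mean of both sexes (edgeR adjusted p of 0.988 and 0.908). Under this covariate no gene was called for daily prednisone in the mean of both sexes, where 2033 were called without it, and 44 were called in daily males, where 878 were called without it. The marker sums of daily and vehicle libraries did not overlap in either sex, so treatment and adipocyte signal cannot be told apart here. The study itself reads higher lipid metabolism genes in weekly females, lipid droplet genes among them, as a response of the muscle. Cidec, a marker of this list, was among the genes near which it measured glucocorticoid receptor binding. Whether the markers came from fat cells or from fibers was not tested.

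**Figure D2:**
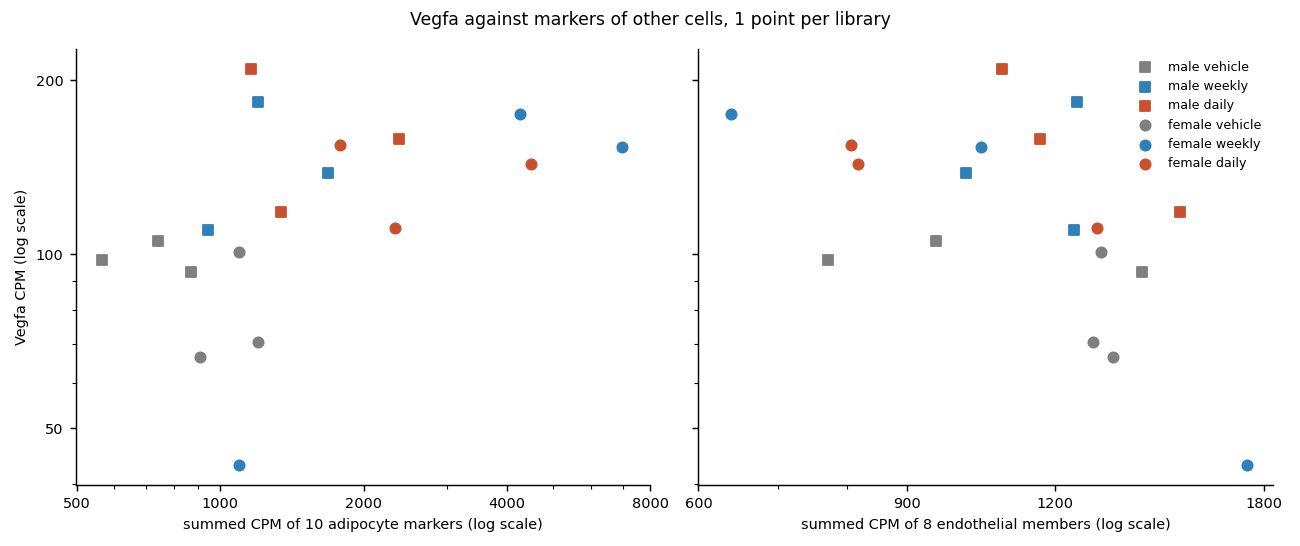
Vegfa (CPM, log scale) in each of the 18 libraries against the summed CPM of 10 adipocyte markers (left, log scale) and of the 8 endothelial members (right, log scale), with color for treatment and squares for males, circles for females. The 6 vehicle libraries lie at or below 105 CPM of Vegfa with at most 1201 CPM of adipocyte markers, and weekly female replicate 2 (43.3 CPM) lies lowest with the highest endothelial sum.

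Vegfb, the ligand that reaches Flt1 alone, was not called in any comparison. It read 69.3, 70.0 and 60.1 CPM in vehicle males, 63.3, 75.2 and 83.0 CPM in weekly males and 54.4, 39.2 and 75.8 CPM in daily males. In females it read 68.5, 68.1 and 62.8 CPM with vehicle, 112, 58.6 and 67.1 CPM weekly and 91.7, 51.4 and 67.4 CPM daily. The groups overlapped in each of these comparisons, and the log2 fold changes were -0.24 ± 0.26 in daily males, 0.08 ± 0.25 in daily females, 0.15 ± 0.25 in weekly males and 0.25 ± 0.25 in weekly females, with edgeR adjusted p values from 0.620 to 0.938. Without weekly female replicate 2 the value in weekly females was 0.41 ± 0.26.

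A ratio of 2 genes within a library needs no scaling between libraries, and 4 such ratios were compared for daily and for weekly prednisone by an exact permutation test that relabelled libraries inside each sex (two-sided, 400 relabellings, adjusted over 8 comparisons). The Vegfa to Vegfb count ratio was 1.41, 1.50 and 1.55 in vehicle males and 2.90, 3.01 and 2.75 in daily males. In females it was 1.47, 1.03 and 1.06 with vehicle and 1.69, 2.16 and 2.12 with daily prednisone. Every daily library lay above every vehicle library of its sex. The share of all gene pairs that separate like this was not computed, and the ratio was not tested with the adipocyte covariate. The log2 ratio rose by 0.96 in males and by 0.75 in females, which is 0.85 in the mean or 1.81-fold, with an exact permutation p of 0.005, the smallest that 400 relabellings can give, and an adjusted p of 0.04. Leaving out 1 library at a time kept the difference between 0.81 and 0.94, and the adjusted exact p reached 0.08 without daily female replicate 2 or without replicate 3. For weekly prednisone the log2 difference was 0.30 (exact permutation p = 0.255, adjusted p = 0.655). Weekly males had ratios of 1.74, 1.84 and 2.21, all above vehicle males, while weekly females had 1.57, 0.739 and 2.28. Without weekly female replicate 2 the weekly difference was 0.53 with an adjusted exact permutation p of 0.04. That library was singled out in part by its low Vegfa, and its ratio of 0.739 was the lowest of all libraries. The p without it is therefore no test of the weekly difference.

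The other ratios did not pass. Flt1 to Kdr, the decoy-like over the signaling receptor, differed by 0.09 (log2) for daily and by -0.12 for weekly prednisone in the mean of both sexes, with exact permutation p values of 0.655 and 0.615 and an adjusted p of 0.655 for both. In vehicle libraries its log2 was 1.17 ± 0.17 (SD, n = 3) in males and 0.47 ± 0.09 in females, a gap that the 8 comparisons did not test. The Kdr to Cdh5 ratio, VEGFR2 per endothelial junction gene, differed by 0.11 daily and 0.14 weekly, with exact permutation p values of 0.53 and 0.55 and an adjusted p of 0.655 for both. Tek to Tie1 differed by 0.23 daily and -0.08 weekly, with exact permutation p values of 0.23 and 0.455 and again an adjusted p of 0.655 for both. Behind the daily value of Tek to Tie1 stood opposite signs, with 0.499, 0.604 and 0.855 in daily males above 0.378, 0.481 and 0.406 in vehicle males, but 0.451, 0.471 and 0.452 in daily females below 0.526, 0.505 and 0.477 in vehicle females. How many gene pairs separate in this way was not computed.

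**Figure D3:**
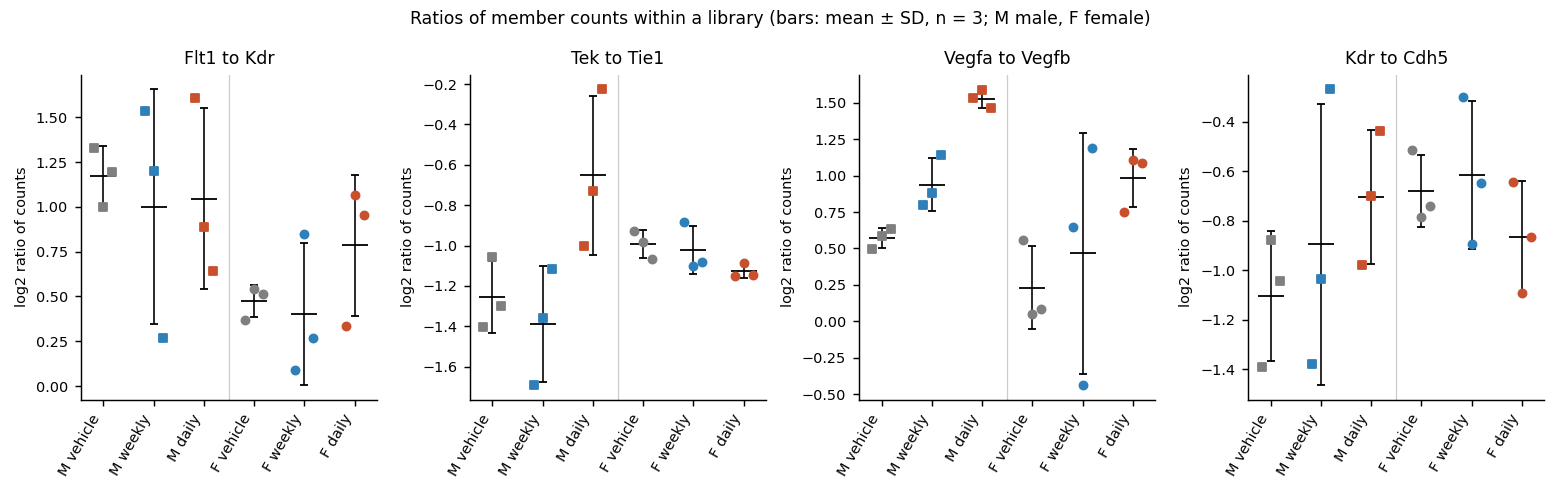
The log2 ratio of the counts of 2 members within a library, for 4 pairs, in each of the 6 groups, with 1 point per library (squares males, circles females, color for treatment) and bars for the mean ± SD (n = 3). Vegfa to Vegfb is higher in all 6 daily libraries than in the vehicle libraries of the same sex, and Tek to Tie1 lies above vehicle in daily males and below it in daily females.

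Among the receptors, Kdr read 63.9, 99.8 and 135 CPM in vehicle males, 101, 93.9 and 192 CPM in weekly males and 103, 164 and 149 CPM in daily males. In females Kdr read 174, 145 and 164 CPM with vehicle, 93.7, 184 and 137 CPM weekly and 111, 132 and 91.5 CPM daily. Daily females thus lay wholly below vehicle females, whereas the male groups overlapped. The log2 fold change of Kdr was 0.48 ± 0.31 in daily males and -0.53 ± 0.31 in daily females, with edgeR adjusted p values of 0.385 and 0.398.

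Tek, the angiopoietin receptor, likewise read higher in daily than in vehicle males on average and lower in daily than in vehicle females. It read 36.0, 49.7 and 63.6 CPM in vehicle males, 45.0, 41.4 and 59.2 CPM in weekly males and 60.5, 91.6 and 68.5 CPM in daily males. In females it read 73.8, 70.1 and 74.0 CPM with vehicle, 32.4, 90.1 and 54.7 CPM weekly and 38.1, 63.4 and 39.0 CPM daily. Daily females lay wholly below vehicle females, and daily males wholly above weekly males. The log2 fold change of Tek was 0.56 ± 0.31 in daily males and -0.63 ± 0.31 in daily females (edgeR adjusted p of 0.293 and 0.307).

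Eng, the BMP and TGF-beta co-receptor, read 89.6, 110 and 152 CPM in vehicle males, 140, 138 and 165 CPM in weekly males and 145, 223 and 134 CPM in daily males. In females it read 159, 169 and 147 CPM with vehicle, 106, 222 and 135 CPM weekly and 95.9, 119 and 88.1 CPM daily. Each daily female library was below each vehicle female library, and the male groups overlapped. The log2 fold change of Eng was 0.51 ± 0.25 in daily males and -0.65 ± 0.26 in daily females, the latter with an unadjusted p of 0.0212 and an adjusted p of 0.198 (edgeR). Eng shares 61 exonic bases with Fpgs on the opposite strand, but Fpgs had 1567 counts over all libraries and Eng 31307. In mm10 the table places Kdr at chr5:75932827-75978458, Tek at chr4:94739289-94874976 and Eng at chr2:32646595-32682669.

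Of the remaining endothelial members, Tie1 read 140, 139 and 155 CPM in vehicle females and 84.6, 135 and 86.6 CPM in daily females, again without overlap, at a log2 fold change of -0.51 ± 0.34 (edgeR adjusted p = 0.465). In males Tie1 differed by -0.01 ± 0.34. Flt1 ranged from 161 to 309 CPM in vehicle males and from 232 to 313 CPM in daily males, and its log2 fold changes were 0.34 ± 0.35 in daily males and -0.18 ± 0.35 in daily females. These lie at chr4:118471191-118490061 (Tie1) and chr5:147561604-147726011 (Flt1). Pecam1 (chr11:106654217-106750628), Cdh5 (chr8:104101625-104144502) and Emcn (chr3:137341067-137432185) overlapped between daily and vehicle libraries in both sexes. Their log2 fold changes in daily males were 0.17 ± 0.34, 0.09 ± 0.31 and 0.06 ± 0.32, and in daily females -0.51 ± 0.34, -0.32 ± 0.31 and -0.41 ± 0.32. In daily females 4 of 10 members (Eng, Kdr, Tek and Tie1) lay wholly below vehicle, beside 10.2% of all genes tested. These 4 correlated within groups, so they are not independent of one another. Adipocyte markers also separated daily from vehicle females (1784 to 4502 against 906 to 1201 CPM), and the mitochondrial share was 11.7% to 18.3% in daily and 21.1% to 26.3% in vehicle females. With the adipocyte covariate the log2 fold changes in daily females were -0.17 ± 0.30 for Eng, -0.10 ± 0.39 for Kdr, -0.10 ± 0.37 for Tek and 0.02 ± 0.41 for Tie1. The part of the mitochondrial share was not tested.

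The median log2 fold change of the 10 members was 0.26 in daily males, where 8 of 10 were positive and the median of all genes was 0.05. In daily females it was -0.46, where 2 of 10, the ligands Vegfa and Vegfb, were positive and the median of all genes was 0.01. In weekly males 9 of 10 were positive with a median of 0.15, and in weekly females 2 of 10, again the ligands, with a median of -0.19. The weekly and daily comparisons of a sex share their vehicle libraries. For weekly prednisone the 8 endothelial members ranged from -0.03 ± 0.31 (Tek) to 0.38 ± 0.31 (Kdr) in males and from -0.34 ± 0.34 (Pecam1) to -0.04 ± 0.25 (Eng) in females. Without weekly female replicate 2, the values in weekly females ran from -0.83 ± 0.33 for Pecam1 (-0.34 with it) through -0.78 ± 0.31 for Flt1 (-0.17), -0.77 ± 0.29 for Tek (-0.30), -0.75 ± 0.32 for Tie1 (-0.24), -0.67 ± 0.29 for Cdh5 (-0.20), -0.57 ± 0.29 for Emcn (-0.06) and -0.51 ± 0.33 for Kdr (-0.22) to -0.42 ± 0.24 for Eng (-0.04), still with no endothelial member called.

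**Figure D4:**
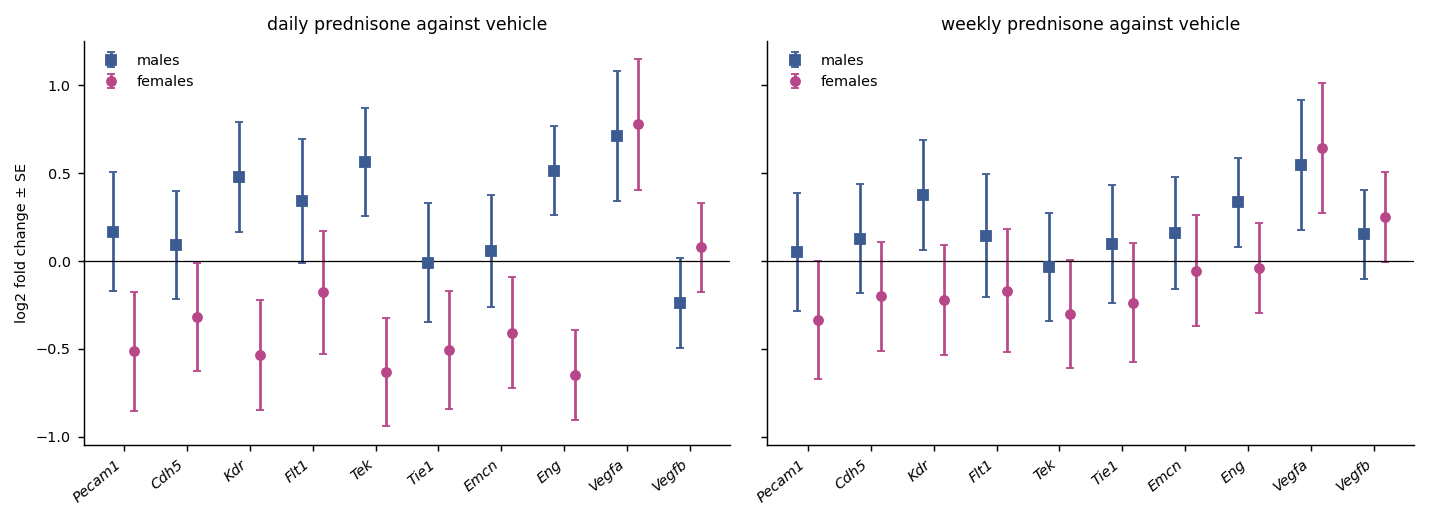
Log2 fold change (± SE, edgeR) of the 10 members for daily (left) and weekly (right) prednisone against vehicle, males as squares and females as circles, each from 3 libraries a group. In the daily panel 8 of 10 male values are positive and 8 of 10 female values are negative, and Vegfa is positive in all 4 comparisons.

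The sex difference of the response, the female log2 fold change minus the male one, was tested as an interaction. For daily prednisone it was -1.16 ± 0.36 for Eng, -1.20 ± 0.44 for Tek and -1.01 ± 0.44 for Kdr, with unadjusted p values of 0.00508, 0.0149 and 0.0360. All 3 had an adjusted p of 0.889 (edgeR), and none of the 10 members was called (0% of all genes called, 638 of 13596 at an unadjusted p below 0.05, and 0 members by DESeq2 and by limma-voom). For Vegfa the difference was 0.07 ± 0.52 and for Vegfb 0.31 ± 0.36. The vehicle groups themselves were also compared between the sexes. Vehicle females read higher than vehicle males in Kdr (log2 difference 0.70 ± 0.31, unadjusted p of 0.0413, adjusted p of 0.456, edgeR) and in Tek (0.55 ± 0.31, adjusted p of 0.563), and for both every vehicle female library lay above every vehicle male library (2 of 10 members, beside 9.66% of all genes). None of the 10 members was called between the sexes (1 at an unadjusted p below 0.05, 0 by DESeq2 and by limma-voom), where 0.765% of genes were. Within vehicle males the endothelial sum ran from 772 to 1419 CPM, and within vehicle females from 1290 to 1342 CPM. For weekly prednisone 0 of 10 members were called for a sex difference (0% of all genes, with 357 genes but no member unadjusted, and no member by DESeq2 or limma-voom), and the largest member value was -0.60 ± 0.44 for Kdr. Without weekly female replicate 2 the 8 endothelial members had weekly sex differences from -0.93 ± 0.41 (Flt1, -0.31 with that library) to -0.72 ± 0.38 (Emcn), and Vegfa had 0.48 ± 0.32, with edgeR adjusted p values of at least 0.773.

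Daily was also set against weekly prednisone, and no member was called in males (0 of 10, none unadjusted, 0% of all genes with 1829 unadjusted), in females (0 of 10, 1 unadjusted, 0% with 2401 unadjusted) or in the mean (0 of 10, none unadjusted, 8.17%), by edgeR, DESeq2 or limma-voom. Tek was higher in all 3 daily than in all 3 weekly male libraries, with a log2 difference of 0.60 ± 0.31 and an edgeR adjusted p of 0.425, where 11.9% of genes were likewise above. Eng was lower in daily than in weekly females by a log2 difference of -0.61 ± 0.26, with an unadjusted p of 0.0290 and an adjusted p of 0.220 (edgeR), and by -0.22 without weekly female replicate 2. Vegfa differed by 0.17 ± 0.37 in males and 0.14 ± 0.37 in females between the regimens, and by -0.25 ± 0.24 in females without weekly female replicate 2. Without that library Flt1 differed by 0.61 ± 0.31 in females (-0.01 ± 0.35 with it), and 6 of the 8 endothelial members, all but Kdr and Eng, turned from negative to positive.

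**Figure D5:**
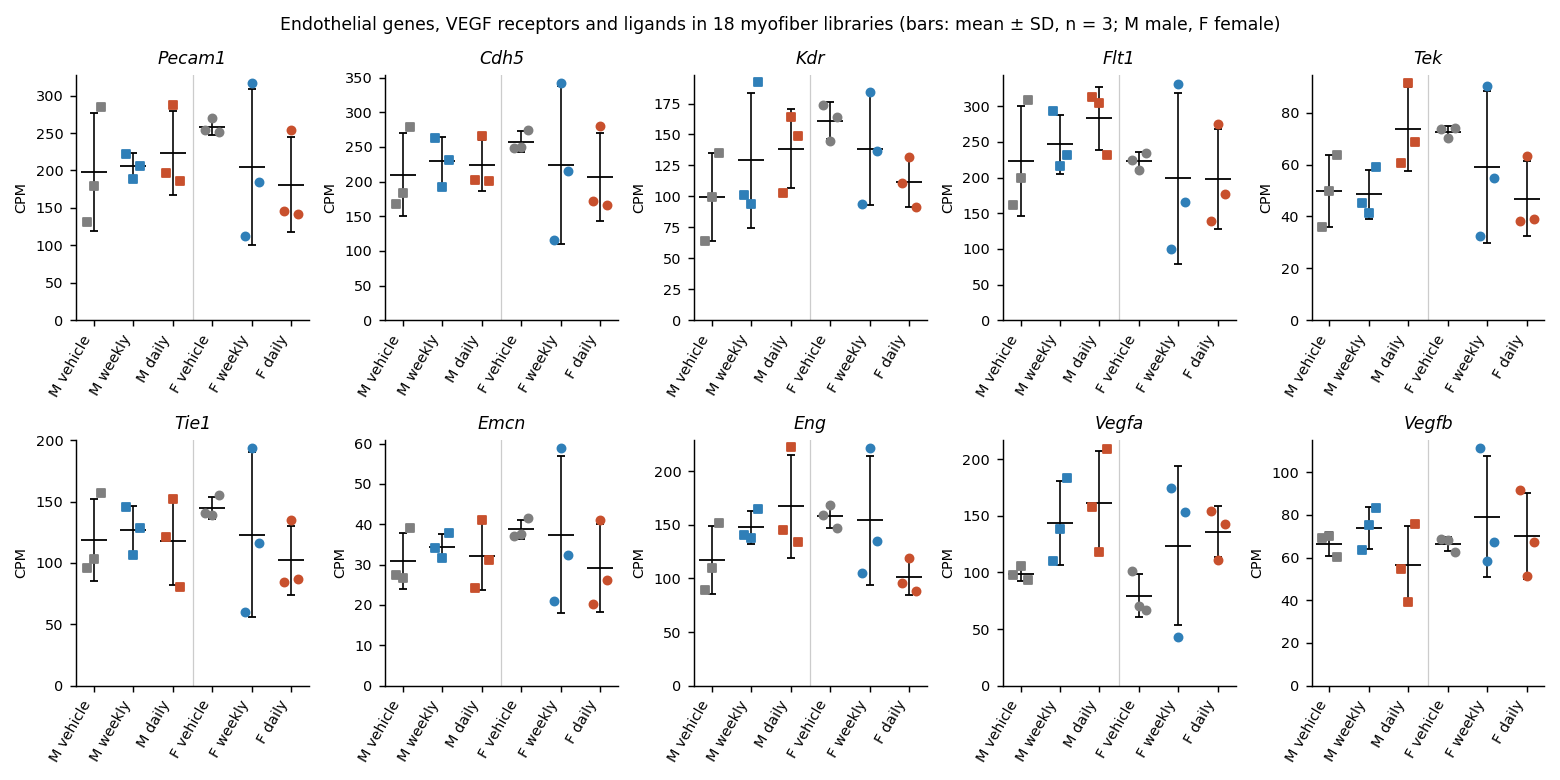
CPM (linear axis from 0) of each of the 10 members in the 18 libraries, by sex and treatment, 1 point per library, with bars for the mean ± SD (n = 3). Vehicle females form a tight set in the 8 endothelial panels, weekly females spread widest in every panel except that of Kdr, and in the Vegfa panel all daily libraries lie above vehicle.

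The 8 endothelial members varied together between libraries of 1 group. Across the 18 libraries, as deviations of log2 CPM from the group means, the 28 pairs had Pearson correlations of 0.58 to 0.96 with a median of 0.88. Vegfa and Vegfb ran the other way, with correlations of -0.88 to -0.26 to the endothelial members over 16 pairs and 0.72 to each other. These are descriptions, and the points of a pair share library, depth and digestion. They were not computed without weekly female replicate 2, which had the highest endothelial sum and the lowest Vegfa of the 18 libraries. Of 13586 other genes, those whose log2 CPM over 18 libraries was most like the mean standardized level of the 8 were Epas1 (Pearson r = 0.96, Spearman rho = 0.95), a hypoxia-inducible factor rich in endothelium, Fbln2 (0.95 and 0.93), Pcdh1 (0.95 and 0.88), Arap3 (0.94 and 0.90) and Plxnb2 (0.94 and 0.94). Most like Vegfa were Ppip5k1, Lypla1 and Lpgat1 (r = 0.92, 0.91 and 0.91), and most like Vegfb were Hspb6, a small heat shock protein of muscle, Fastk and Sdhb, a subunit of succinate dehydrogenase (r = 0.91, 0.90 and 0.90).

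Partners of these members were followed by lists, for the mean of both sexes, where 15% of all genes were called for daily prednisone. Lists with 1 gene called of 9 or 11 lie below that share. Of the other VEGF ligands, receptors and co-receptors (Pgf, Vegfc, Vegfd, Flt4, Nrp1 and Nrp2), 0 of 6 were called by edgeR, DESeq2 or limma-voom for daily prednisone and 0 at an unadjusted p below 0.05. The median log2 fold change was 0.18, with Flt4, the lymphatic VEGF receptor, at -0.28 ± 0.24 and Vegfd at 0.30 ± 0.26. Of 5 tested genes in the list of angiopoietins and related genes, 2 rose with daily prednisone by edgeR, namely Angpt1, the agonist of Tek, by 0.73 ± 0.22 on the log2 scale (adjusted p = 0.0369) and Angptl4, an inhibitor of lipoprotein lipase that is not a ligand of Tek or Tie1, by 1.75 ± 0.48 (adjusted p = 0.0241). DESeq2 called 2 of the list and limma-voom none. Angpt2, the context-dependent antagonist, stood at -0.56 ± 0.21 with an edgeR adjusted p of 0.0816. For weekly prednisone Angpt1 was 0.58 ± 0.23 and Angptl4 1.59 ± 0.48 (edgeR adjusted p of 0.347 and 0.239).

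Of 11 tested genes of the endoglin pathway, 1 rose with daily prednisone, Tgfbr1, a type I TGF-beta receptor, by 0.44 ± 0.09 (edgeR adjusted p = 0.00405), beside a list median of 0.01. No gene of the endothelial Notch list (0 of 8, none unadjusted), the endothelial transcription factors (0 of 13, none unadjusted) or the other endothelial and capillary markers (0 of 22, 2 unadjusted) was called for daily prednisone by edgeR, DESeq2 or limma-voom. The nearest were Notch4 at -0.32 ± 0.23, Dll4 at 0.31 ± 0.23, Klf2, a flow-sensitive factor, at -0.80 ± 0.39, Sox18 at -0.35 ± 0.18, Ly6a at -0.46 ± 0.19 and Ramp2 at -0.48 ± 0.21. The 22 other endothelial markers had a median of 0.08 in daily males and -0.31 in daily females, beside 0.26 and -0.51 for the 8 endothelial members. These signs were shared by some lists of other cells, with medians in daily males and daily females of 0.24 and -0.39 for fibroblasts, 0.42 and -0.29 for mural cells and 0.15 and -0.61 for lymphatic endothelium. Other lists did not share them, with 0.06 and 0.02 for macrophages, 2.51 and 3.31 for adipocytes, -0.42 and -0.83 for red cells and -0.20 and -0.01 for myofibers. Of the regulators of VEGF 0 of 9 were called (3 unadjusted, none by DESeq2 or limma-voom), with Vhl, which marks hypoxia-inducible factors for destruction, at -0.33 ± 0.13 and Ppargc1a, a coactivator that drives Vegfa in muscle, at 0.75 ± 0.33. Of the inhibitors of angiogenesis 0 of 9 were called by edgeR (1 unadjusted, 1 by DESeq2, none by limma-voom), with Adamts1 at 1.07 ± 0.36 (edgeR adjusted p = 0.0557) and Cd36 at 0.21 ± 0.24.

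Markers of other cells were read in the same comparison. Of 9 mural cell genes 1 rose, Abcc9, a potassium channel subunit of pericytes and muscle, by 0.47 ± 0.09 (edgeR adjusted p = 0.00357), and 0 of 6 lymphatic genes were called by any of the 3 tools (none unadjusted), with Ccl21a at -0.83 ± 0.40 and Pdpn at -0.36 ± 0.20. Of 10 adipocyte genes 9 rose, led by Pck1 (4.01 ± 0.88), Plin1 (3.60 ± 0.82) and Cidec (3.35 ± 0.69). Of 9 macrophage genes 1 rose, Cd68, by 1.41 ± 0.21. The fibroblast list had 0 of 7 called by any tool (none unadjusted), with Pdgfra at 0.25 ± 0.19 and Col1a1 at -0.34 ± 0.41. Of 5 red cell genes 4 fell, led by Hbb-bt at -0.69 ± 0.14, Hbb-bs at -0.66 ± 0.15 and Hba-a2 at -0.63 ± 0.16, and of 8 myofiber genes 2 fell, Mylpf at -0.58 ± 0.15 and Tnnt3 at -0.45 ± 0.15. Globin genes are near-identical copies between which reads can be split. With the adipocyte covariate no gene of these lists was called. For weekly prednisone edgeR called no gene of these lists. At an unadjusted p below 0.05 stood 8 adipocyte, 3 macrophage, 2 angiopoietin, 2 endoglin, 2 myofiber genes and 1 regulator, and DESeq2 called 8 adipocyte, 1 macrophage and 1 endoglin pathway gene.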

How the data were processed

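RNA-seq read counts per gene were measured in 18 libraries of isolated quadriceps myofibers, 3 per sex and treatment. The deposited values are whole-number counts, which the authors made by aligning reads to mm10 and counting per gene. The submitters' processing notes list TopHat2 2.1.0, Bowtie2 2.2.6 and HTSeq, and a build other than mm10 beside it. Strand setting and annotation release are not given in the sources used here, so overlapping genes are uncertain. No normalization was applied before deposit. Of 43430 identifiers 42462 had a symbol. The deposited gene length exceeded the gene's span for 1982 genes and was replaced by the longest coding transcript of GENCODE M21. The labels number the libraries without tying them to animals, but the study gives 3 animals per group for this sequencing. The p values rest on the spread between these libraries.

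Counts were fitted in R 4.3.3 with edgeR 4.0.16 (filterByExpr with a minimum count of 10, TMM, robust quasi-likelihood fit of 6 group means over 18 libraries). Benjamini-Hochberg adjustment ran over 13596 genes, with calls below 0.05. Each standard error is the absolute log2 value over the square root of F. The fit was tested on simulated data. Ratios used counts plus 2. Alternatives were DESeq2 1.42.0, limma-voom (limma 3.58.1), DESeq2 size factors, other filters, a replicate block, the compared groups alone, an adipocyte covariate, removal of length and GC trends (splines with 5 degrees of freedom), a prior count of 0.5 and leaving out each library.

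The members and the 16 gene lists were chosen with earlier results of these data known. Named beyond the 10 members were, per list, up to 3 called genes with the largest change for daily prednisone in the mean of both sexes, or else the 2 with the smallest p, and the genes most like the members across libraries. Angpt2 was named after its values were seen, and 1 of the lists is not reported here. Same-numbered deviations correlated at 0.50, 0.48 and 0.44 between daily and weekly females, higher than in the other comparisons checked. The labels link no library of a group to a library of another group, so the numbers set no pairs.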

Additional observations from a re-analysis of the deposited data

Results flagged for a closer look

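Kdr, Tek and Eng lay, in every daily male library, above the mean of vehicle males and, in every daily female library, below the mean of vehicle females. The test of that sex difference gave log2 values, females minus males, of -1.01 for Kdr, -1.20 for Tek and -1.16 for Eng, with an adjusted p of 0.889 for each (edgeR), and -1.31 to -0.79, -1.48 to -1.01 and -1.42 to -0.90 when 1 library was left out. With the adipocyte covariate the sex differences were -0.89, -1.06 and -1.05 (edgeR adjusted p of 0.943 for each). Under it the female log2 fold changes were nearer 0, at -0.10, -0.10 and -0.17, and the male ones were larger, at 0.80, 0.96 and 0.87, with no call in either sex. Kdr, Tek and Eng were picked by searching all members for opposite sides of the vehicle mean. The share of all genes with this pattern was not computed. Their deviations from the group means correlated at 0.78 to 0.92, so they are not independent of one another.

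The Tek to Tie1 ratio was above all vehicle males in daily males (log2 difference 0.60) and below all vehicle females in daily females (-0.13). The sexes differed by -0.73, and this difference was not tested. The ratio was picked by searching the ratios for groups without overlap in both sexes and with opposite signs. In females the nearest count ratios were 0.471 (daily) and 0.477 (vehicle). The share of all gene pairs with this pattern was not computed.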

How the results depend on the processing

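Vegfa was the only member called under any alternative. Members called for daily prednisone in the mean of both sexes went from 0 to 1 with DESeq2 (2354 genes called in all) and with the compared groups alone (2386 genes). In daily males they went from 0 to 1 with the compared groups alone (1530 genes). Leaving out 1 library gave 0 to 1 for weekly females and for the weekly mean, where only omission of weekly female replicate 2 gave 1. Under that omission 253 genes in all were called in weekly females and 174 in the weekly mean. The other 217 of 222 counts stayed at 0. Of 1300 values for single members, 5 passed the threshold, all Vegfa, and 120 changed sign with neither value past it, 33 with the adipocyte covariate, 70 when a library was left out, 7 each with length and GC trends removed, alone and with the replicate block, 2 with no filter and 1 with limma-voom.

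For ratios, the replicate block left Vegfa to Vegfb, daily, at 0.85 with an adjusted exact p of 0.25, the smallest that 64 sign changes over 8 comparisons allow. Those groups share only a number, with no pairing. With the block in the fits across genes, 0 members were called in any comparison, including daily against weekly females. Leaving out a library gave 0.81 to 0.94 for Vegfa to Vegfb daily and 0.12 to 0.53 weekly, -0.050 to 0.20 for Flt1 to Kdr daily and -0.26 to 0.060 weekly, and -0.020 to 0.26 for Kdr to Cdh5 weekly. A prior count of 0.5 changed no call or sign of a ratio. Whether deeper sequencing would narrow these values was not tested. The causes of these shifts were not tested.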
